A study of Homo sapiens with 9 samples.

Results

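ARPE-19, an established line of human retinal pigment epithelial cells, was given cigarette smoke condensate at 100 or 250 µg/ml, and the 3 arrays at the higher dose were set against the 3 arrays at the lower dose within array number (1 with 1, 2 with 2, 3 with 3). These 6 arrays were chosen by their titles from the 9 of the series; the remaining 3 are vehicle controls and appear here for their levels. All arrays carry total RNA of cells that were grown to confluence in serum and then held in DMEM/F12 with albumin. Per the labels, the condensate was bought as a DMSO solution of 40 mg/ml with 6% nicotine, made from reference cigarettes smoked on a machine, and was diluted in the same medium. The labels do not say for how long the cells were treated or whether the amount of DMSO was the same at both doses, so DMSO and condensate cannot be told apart. The arrays of a dose are numbered but are not said to be separate cultures, so the spread between them may be technical. The comparison asks what the higher dose adds to, or takes from, the transcript levels seen at the lower dose.

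Smoke condensate carries oxidants, aldehydes, nicotine and polycyclic hydrocarbons. Electrophiles release the transcription factor NRF2 from its inhibitor KEAP1, and NRF2 then binds antioxidant response elements and switches on genes of glutathione synthesis, haem breakdown and NADPH supply. Polycyclic hydrocarbons act through another factor, the aryl hydrocarbon receptor (AHR), which drives the cytochrome P450 genes of family 1. The retinal pigment epithelium is normally a resting monolayer that supports the photoreceptors and lives under a high oxidative load.

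The values are log2 summaries, 1 per probe set (a set of array probes for 1 transcript cluster), so a difference of 1 is a 2-fold change. Of 17629 probe sets, 14378 name exactly 1 gene, and all 14378 were tested. Array medians over the 6 arrays lay between 4.46 and 4.59. Same-numbered arrays of both doses correlated at 0.991 to 0.995, against 0.980 to 0.992 among arrays at 100 µg/ml and 0.982 to 0.992 among arrays at 250 µg/ml. The first principal component of the 6 arrays (52.3% of the variance) put both arrays numbered 3 at 27.68 and 28.30 and the other 4 between -22.97 and -4.22, so it set the arrays numbered 3 apart. The second (18% of the variance) put the arrays at 100 µg/ml at 2.81, 19.92 and 4.56 and those at 250 µg/ml at -20.48, -3.11 and -3.70, with no overlap between doses. Deviations from the dose means correlated at 0.601, 0.441 and 0.681 between arrays of the same number, and 6 of 6 arrays matched their own number best.

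Among cell type markers, the general epithelial keratin genes KRT8 and KRT18 and the pigment epithelium factor genes OTX2 and MITF lay above the array median on all 6 arrays. RPE65, which encodes the isomerase of the visual cycle, and the chloride channel gene BEST1 lay below the lower quartile on all 6, so defining markers of mature pigment epithelium were at the bottom of the scale. Of 10 measured pigment epithelium markers 5 lay above the median on all 6 arrays, and their mean ran from 5.57 to 5.85 at 100 µg/ml and from 5.54 to 5.84 at 250 µg/ml. Of the markers of other cell types, 4 of 5 for fibroblasts, 3 of 5 for endothelium, 1 of 5 for leukocytes and 2 of 5 for photoreceptors and Muller glia lay below the lower quartile on every array. PDGFRB of the fibroblast set (6.17 to 8.23), CD68 of the leukocyte set (8.86 to 9.31) and GLUL of the glial set lay above the array median on all 6 arrays. The rod factor gene NRL, between 3.00 and 4.17, differed by 0.46 ± 0.09 (limma adjusted p = 0.213); the part of such cells in the results was not tested. The means of these sets overlapped between doses, with 3.27 to 3.65 against 3.30 to 3.68 for fibroblasts, 2.68 to 2.83 against 2.73 to 2.77 for endothelium, 4.26 to 4.58 against 4.32 to 4.40 for leukocytes and 3.19 to 3.43 against 3.28 to 3.55 for photoreceptors and glia.

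At 250 µg/ml the haem oxygenase gene HMOX1 lay 3.41-fold higher than at 100 µg/ml, and the gene of the natriuretic peptide BNP, NPPB, lay 3.77-fold lower, each in 3 of 3 pairs. Of 23 NRF2 targets 15 lay higher in 3 of 3 pairs (17.6% of all probe sets did), and 25 of 33 DNA replication genes and 14 of 27 mitosis genes lay lower (13.7% of all). None of these differences passed correction over all probe sets: limma with array number as a block called 0 probe sets higher and 0 lower (0% of 14378, Benjamini-Hochberg adjusted p under 0.05), and the lowest adjusted p was 0.104. At an unadjusted p under 0.05 there were 826 higher (5.74%) and 778 lower (5.41%), and centring each array on its median turned this split to 607 higher and 926 lower. The count of calls was not 0 in all settings: it was 9 when the dimmest probe sets were left out (1 higher and 8 lower), 8 with a variance trend on intensity (1 and 7), and 10 without the arrays numbered 2 (5 and 5). Genes are therefore described below by their values in each pair and are not called changed.

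**Figure D1:**
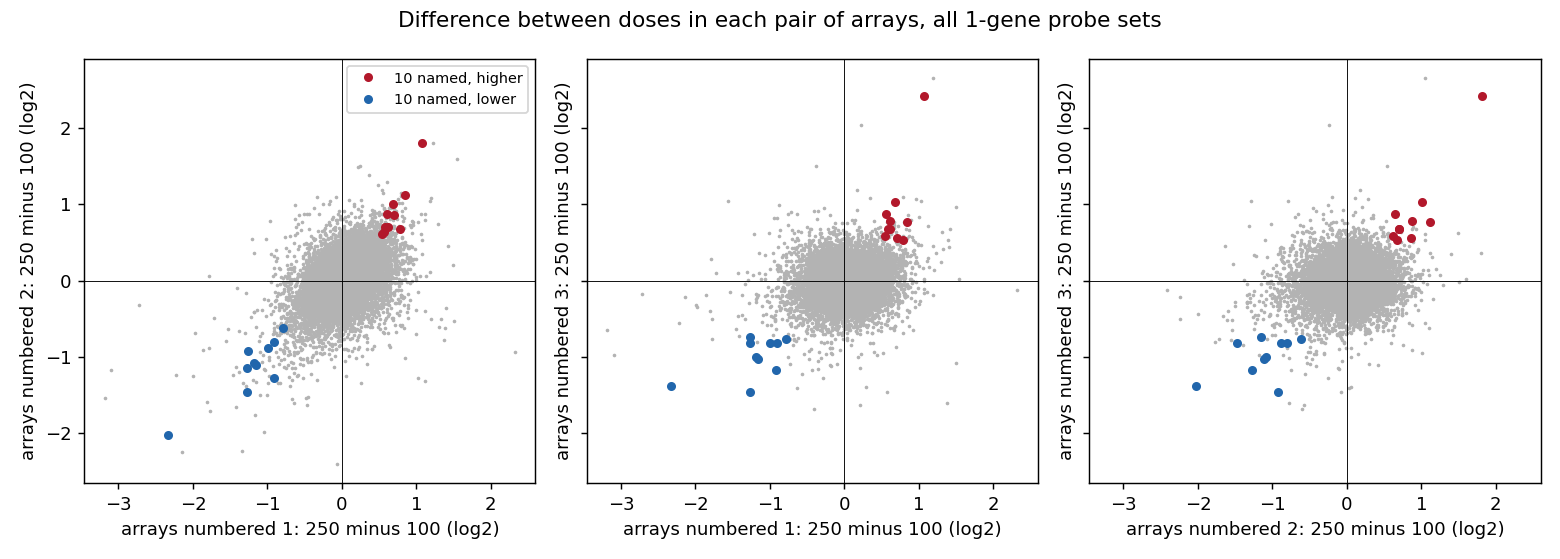
Difference between doses (250 minus 100 µg/ml, log2) for each of 14378 probe sets, each panel setting 1 pair of arrays against another; red and blue points are the 10 higher and 10 lower probe sets of lowest p. Pairs 1 and 2 lie along a diagonal (r = 0.433), while pair 3 shows little relation to either over all probe sets (0.102 and 0.120).

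The 3 pairs gave unequal pictures of the dose step. Over all probe sets the difference in pair 1 correlated with that in pair 2 at 0.433, and pair 3 with pairs 1 and 2 at 0.102 and 0.120; these correlations are across probe sets, which are not independent, and each pair difference comes from its own 2 arrays. The sign was shared by 62.5% of probe sets between pairs 1 and 2, by 48.2% between 1 and 3 and by 51.8% between 2 and 3. The spread of the differences was 0.293, 0.288 and 0.225 log2 units (SD over probe sets). A step of at least 2-fold was seen in 31 probe sets upward and 57 downward in pair 1, in 26 and 82 in pair 2, and in 11 and 26 in pair 3. Thus in every pair the large differences were more often toward lower values at 250 µg/ml. The same direction in all 3 pairs was found for 2536 probe sets higher (17.6%) and 1964 lower (13.7%), which is the background for the counts of list members below. Arrays of both doses did not overlap in 3.3% (higher) and 2.88% (lower).

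Only 5 probe sets differed at least 2-fold in every pair, 2 higher (0.0139%) and 3 lower (0.0209%). HMOX1 and PSME2 were the higher ones, and NPPB and IGFBP3 were among the lower; they were singled out after their values were seen, and IGFBP3 stood at the limit in pair 3. Lowering the limit to 0.5 log2 units in every pair gave 17 higher (0.118%) and 41 lower (0.285%). Among the 41 were 7 genes of replication-dependent histones, of which 50 genes were measured among the 14378 probe sets. That list was drawn up after values were seen, and its probe sets may share signal. The mean at 100 µg/ml lay above that of the vehicle arrays for 24 of the 41 lower and for 13 of the 17 higher. The share over all probe sets was not counted, but their median difference between 100 µg/ml and vehicle was -0.05. The arrays at 100 µg/ml were also used to pick these probe sets, so no relation to vehicle is drawn from the counts.

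Of the 10 lower probe sets of smallest p, 9 are described. IGFBP3, which binds insulin-like growth factors, stood at 9.75, 9.89 and 8.81 on the arrays numbered 1, 2 and 3 at 100 µg/ml and at 8.56, 8.81 and 7.81 at 250 µg/ml, a difference of -1.09 ± 0.09 (moderated SE, n = 3 pairs, limma adjusted p = 0.104). Each array at 250 µg/ml lay a whole log2 unit or more below its partner, and the vehicle arrays, at 7.79, 10.28 and 8.28, reached from below the lowest value at 250 µg/ml to above the highest at 100 µg/ml. NPPB stood at 6.34, 6.79 and 7.98 at 100 µg/ml and at 4.01, 4.77 and 6.60 at 250 µg/ml, a difference of -1.91 ± 0.18 (limma adjusted p = 0.108). The array numbered 3 was the highest at either dose, so the doses overlapped when the pairing is set aside. The vehicle arrays of NPPB stood at 7.98, 11.54 and 7.87, and vehicle array 2 stood apart from the other 2.

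Immune surface genes were among them. PDCD1LG2, which encodes the PD-1 ligand PD-L2, stood at 6.30, 7.29 and 6.48 at 100 µg/ml and at 5.39, 6.01 and 5.30 at 250 µg/ml (-1.12 ± 0.11, limma adjusted p = 0.108). IL7R, the interleukin 7 receptor gene, stood at 4.78, 4.92 and 5.49 and at 3.52, 3.99 and 4.03 (-1.22 ± 0.12, limma adjusted p = 0.108). For both genes the doses did not overlap. The vehicle arrays of IL7R lay at 6.14, 7.13 and 6.47, above both doses, while those of PDCD1LG2 (5.48, 6.96 and 6.15) lay within the range of the treated arrays.

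The other 5 lower probe sets described are those of CCBE1, GPC6, BRIP1, FGFBP1 and PDE1C. CCBE1, a secreted factor of lymphatic vessel growth, stood at 7.22, 7.27 and 6.93 and at 6.23, 6.39 and 6.12 (-0.90 ± 0.09), and GPC6, a glypican gene, at 6.99, 7.16 and 7.09 and at 6.08, 6.35 and 6.27 (-0.84 ± 0.09). BRIP1, a helicase that partners BRCA1 in DNA repair, stood at 7.63, 8.16 and 6.81 and at 6.35, 6.69 and 6.00 (-1.19 ± 0.14). In these 3 genes no array at 250 µg/ml reached the lowest at 100 µg/ml. FGFBP1, a carrier of fibroblast growth factors, stood at 5.87, 6.00 and 3.73 and at 4.60, 4.85 and 2.99 (-1.05 ± 0.12), with both arrays numbered 3 far below the others. PDE1C, a calcium-dependent phosphodiesterase gene, varied little within a dose, at 8.10, 8.04 and 8.13 and at 7.32, 7.42 and 7.35 (-0.73 ± 0.09). Limma adjusted p-values of these 5 ran from 0.108 to 0.157.

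**Figure D2:**
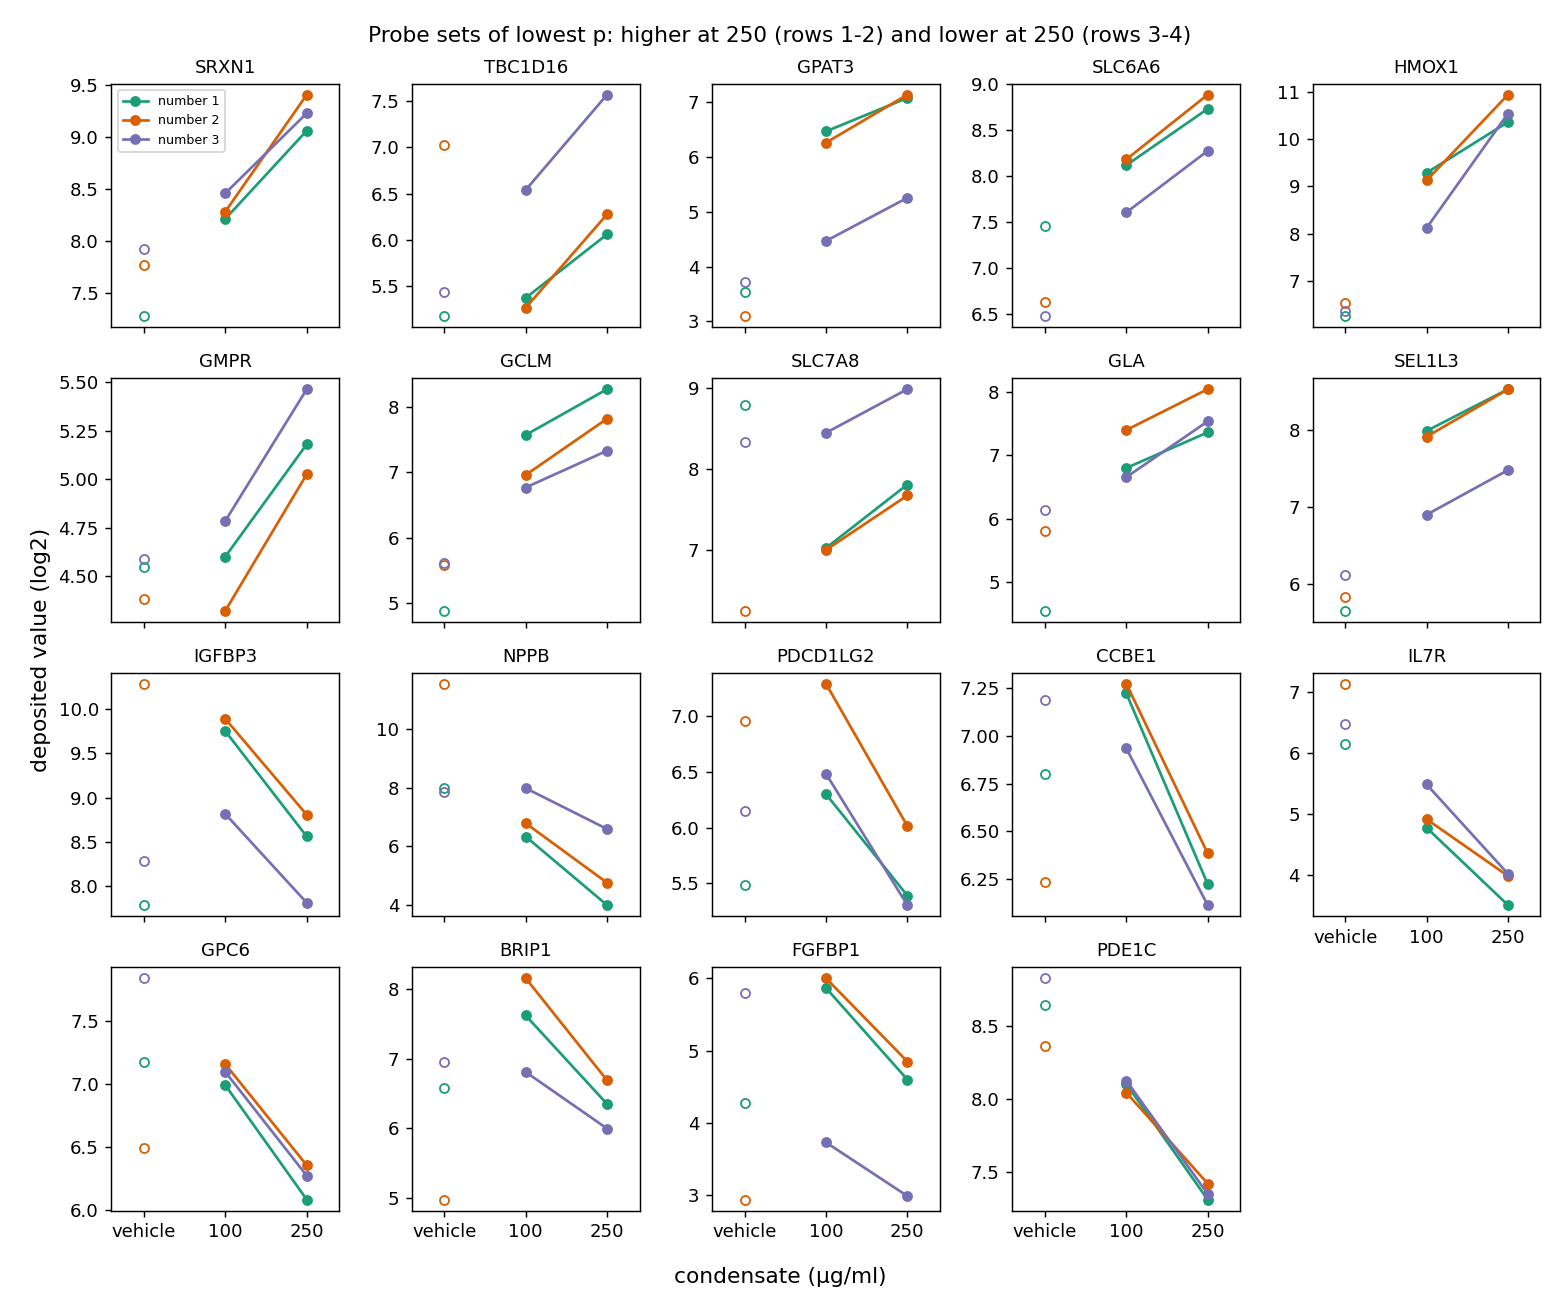
Deposited log2 value on each array for the 10 probe sets higher and 9 of the 10 lower at 250 µg/ml with the smallest p; lines join same-numbered arrays of both doses, and open circles are the vehicle arrays. All 19 slope the same way in 3 of 3 pairs, while the vehicle arrays lie on the far side of the 100 µg/ml arrays in some panels and between the doses in others.

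Of the 10 higher probe sets, that of SRXN1 had the smallest p. SRXN1, sulfiredoxin, which repairs over-oxidised peroxiredoxins, stood at 8.21, 8.28 and 8.46 at 100 µg/ml and at 9.06, 9.40 and 9.23 at 250 µg/ml, a difference of 0.91 ± 0.10 (limma adjusted p = 0.15). HMOX1, which breaks haem down to biliverdin, iron and carbon monoxide, stood at 9.29, 9.13 and 8.12 and at 10.36, 10.94 and 10.54 (1.77 ± 0.24, limma adjusted p = 0.157). Neither gene overlapped between doses, and the vehicle arrays of HMOX1 lay at 6.26, 6.53 and 6.38, below both. HMOX1 differed by 1.07, 1.81 and 2.42 in pairs 1, 2 and 3, with the lowest array at 100 µg/ml (number 3) giving the largest step. GCLM, the modifier subunit of the enzyme that limits glutathione synthesis, stood at 7.57, 6.96 and 6.77 and at 8.27, 7.82 and 7.33 (0.71 ± 0.10, limma adjusted p = 0.157), a step of 1.64-fold that was seen within pairs although the doses overlapped. SLC6A6, the taurine transporter gene, stood at 8.12, 8.18 and 7.60 and at 8.73, 8.89 and 8.28 (0.66 ± 0.09, limma adjusted p = 0.157), above all vehicle arrays (7.46, 6.63 and 6.47) at both doses.

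The remaining 6 were TBC1D16, GPAT3, GMPR, SLC7A8, GLA and SEL1L3. GPAT3, which starts triglyceride synthesis, stood at 6.47, 6.26 and 4.47 and at 7.08, 7.14 and 5.26 (0.76 ± 0.10), against 3.54, 3.10 and 3.71 in the vehicle arrays. GLA, the lysosomal enzyme alpha-galactosidase A, stood at 6.80, 7.40 and 6.66 and at 7.36, 8.04 and 7.53 (0.69 ± 0.10). SEL1L3, a relative of the ER degradation adaptor SEL1L, stood at 7.99, 7.91 and 6.90 and at 8.53, 8.53 and 7.48 (0.58 ± 0.09), with differences of 0.54, 0.62 and 0.58 in the 3 pairs. These 3 genes were already above the vehicle arrays at 100 µg/ml. GMPR, GMP reductase of purine salvage, overlapped the vehicle arrays at the lower dose, at 4.55, 4.38 and 4.59 with vehicle, 4.60, 4.32 and 4.79 at 100 µg/ml and 5.18, 5.03 and 5.47 at 250 µg/ml (0.65 ± 0.09). SLC7A8, a carrier of neutral amino acids, stood at 7.03, 7.00 and 8.45 and at 7.81, 7.67 and 8.99 (0.66 ± 0.09), and the vehicle arrays (8.80, 6.25 and 8.33) spread over most of that range. TBC1D16, a regulator of Rab GTPases, stood at 5.38, 5.27 and 6.54 and at 6.06, 6.28 and 7.57 (0.91 ± 0.11), and a second probe set of that gene differed by only 0.15. Limma adjusted p-values of these 6 ran from 0.15 to 0.157.

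Of the 20 genes, the mean at 100 µg/ml lay on the same side of vehicle as the further step for 8 of the 10 higher and 5 of the 10 lower. The step from vehicle to 100 µg/ml and the step from 100 to 250 µg/ml share the arrays at 100 µg/ml, so an error there would pull them in opposite directions and no relation between them is drawn. PSME2, an activator subunit of the immunoproteasome that was singled out after its values were seen, stood at 3.22, 4.25 and 3.75 at 100 µg/ml and at 4.41, 5.30 and 6.41 at 250 µg/ml (1.63 ± 0.30, limma adjusted p = 0.211). Its vehicle arrays spread from 3.55 to 6.05, which overlaps both doses.

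NRF2 targets were the list with the highest median difference of the 34 summarised, not all of which are described here. Over 23 measured members the median was 0.30 log2 units, with 0.36, 0.28 and 0.40 in pairs 1, 2 and 3, beside 0.01 over all probe sets tested. Of the 23 members 15 lay higher in 3 of 3 pairs, against a background of 17.6%, and 0 lay lower in 3 of 3, against 13.7%. At an unadjusted p under 0.05 there were 12 members higher (background 5.74%) and 0 lower (5.41%). The mean of the list stood at 7.79, 7.83 and 7.70 on the 3 arrays at 100 µg/ml and at 8.14, 8.22 and 8.20 at 250 µg/ml, with no overlap. In the vehicle arrays it stood at 6.82, 6.84 and 6.96. The list was known from earlier results of these data to be high at both doses against vehicle, which is no independent support for the step between them.

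The higher members covered several arms of the NRF2 programme, but not all. In glutathione synthesis, GCLC, the catalytic partner of GCLM, stood at 7.28, 7.36 and 7.06 at 100 µg/ml and at 8.23, 8.09 and 7.29 at 250 µg/ml (0.64 ± 0.15, limma adjusted p = 0.249), with a small step in pair 3. In haem and iron handling, the haem carrier gene SLC48A1 stood at 6.62, 6.18 and 6.71 and at 7.11, 7.07 and 7.41 (0.69 ± 0.11, adjusted p = 0.161 with limma). The ferritin light chain gene FTL stood at 6.37, 7.60 and 7.64 and at 7.80, 8.05 and 8.32 (0.85 ± 0.19, limma adjusted p = 0.24). Together with HMOX1, these haem and iron genes did not overlap between doses. In NADPH supply, the malic enzyme gene ME1 stood at 7.66, 7.31 and 7.52 and at 8.49, 8.01 and 7.72 (0.58 ± 0.14, limma adjusted p = 0.249), and PGD of the pentose phosphate pathway differed by 0.27 ± 0.09. OSGIN1, an oxidative stress growth inhibitor gene, stood at 5.22, 5.33 and 5.65 and at 5.64, 5.81 and 6.30 (0.52 ± 0.09, limma adjusted p = 0.211). PIR, an iron-binding nuclear protein gene, stood at 4.96, 5.34 and 5.10 and at 5.92, 5.62 and 6.17 (0.77 ± 0.16, limma adjusted p = 0.237). EPHX1, the epoxide hydrolase of xenobiotic metabolism, differed by 0.44 ± 0.10, again with no overlap between doses.

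Other members were high against vehicle with little or no further step. The cystine transporter gene SLC7A11 stood at 10.12, 9.90 and 9.37 at 100 µg/ml and at 10.11, 10.16 and 10.03 at 250 µg/ml, both far above the vehicle arrays (6.33, 5.14 and 6.78), and the doses differed by 0.30 ± 0.14 (limma adjusted p = 0.494). The step in SLC7A11 was -0.01, 0.26 and 0.66 in the 3 pairs, so it was absent from pair 1. TXNRD1, thioredoxin reductase 1, stood at 10.90, 11.05 and 10.64 and at 10.77, 10.82 and 10.69 (-0.10 ± 0.10, limma adjusted p = 0.784), and the vehicle arrays stood at 9.77, 10.26 and 10.00. The aldo-keto reductase gene AKR1C3 differed by -0.03 ± 0.27, with pairs of opposite sign (-0.64, -0.32 and 0.87). Genes such as SLC48A1, PIR, FTL, EPHX1 and ME1 were named after their values were seen.

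**Figure D3:**
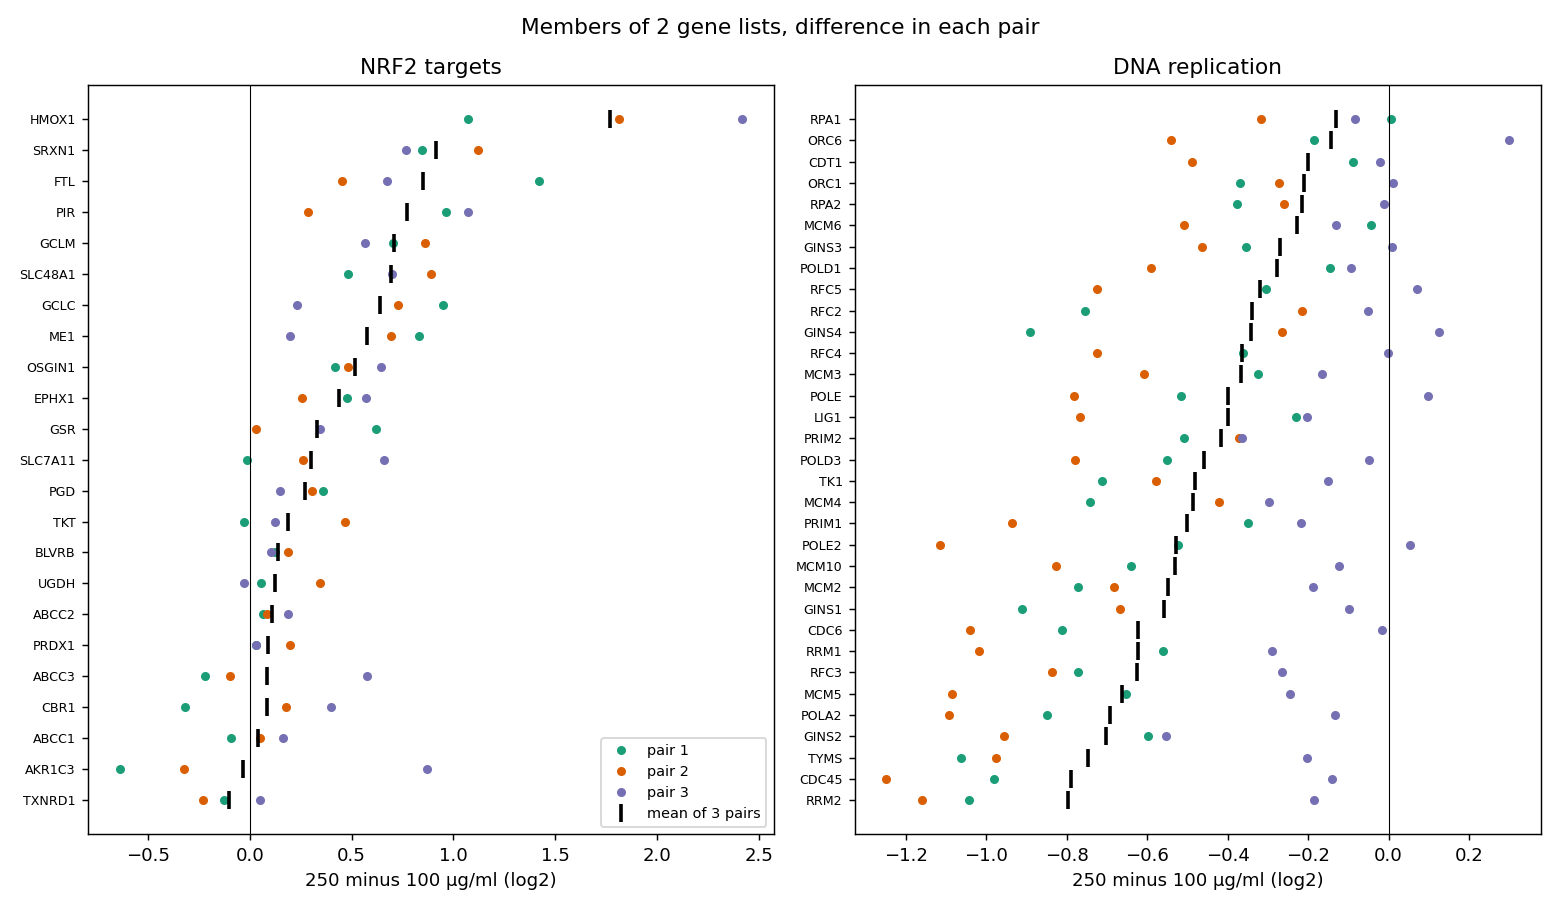
Difference between doses (250 minus 100 µg/ml, log2) in each pair for every measured member of the NRF2 target list (left) and the DNA replication list (right); black bars are means of 3 pairs. HMOX1 lies at the top of the left panel at 1.77, while all 33 replication genes have a mean below 0 and most have their smallest difference in pair 3.

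Where the promoters of these genes hold short motifs was read from RefSeq sequences of GRCh38.p14, over the 250 bases before each annotated start. The antioxidant response core TGACNNNGC, on either strand, was present in 5 of 17 NRF2 targets with a promoter in the table (29.4%) and in 11.0% of all 27305 promoters. An E2F motif (TTTCCCGC, TTTGGCGC, TTTCGCGC or TTTGCCGC, either strand) was present in 9 of 28 DNA replication genes (32.1%) and in 2.79% of all promoters. The cell cycle homology region TTTGAA, on either strand, was present in 9 of 20 mitosis and cell cycle genes (45.0%) and in 13.6% of all promoters. None of these motifs contains another. A match is a match of letters and does not show that a factor binds. The shares follow from which genes a list holds, whatever their values on the arrays, so they say nothing of the step between doses. No promoter of HMOX1 was available. The 4 promoters below, 1 or 2 for each kind of motif, were picked because they hold it and belong to genes described here. They run 5′ to 3′ on the strand of the gene and have the motif in capitals. The promoter of SRXN1, the higher gene of smallest p, was also read and holds no antioxidant response core. In GCLM (chr1:93909431-93909680, minus strand) the core starts 34 bases before the start of the gene, on the opposite strand to the gene. In GINS2 (chr16:85688955-85689204, minus strand) and RFC3 (chr13:33817899-33818148, plus strand) the E2F motif starts 31 and 55 bases before the start. In KIF11 (chr10:92592880-92593129, plus strand) the homology region starts 28 bases before the start. All 4 motifs lie on the opposite strand to the gene, so the capitals show their reverse complements.
GCLM: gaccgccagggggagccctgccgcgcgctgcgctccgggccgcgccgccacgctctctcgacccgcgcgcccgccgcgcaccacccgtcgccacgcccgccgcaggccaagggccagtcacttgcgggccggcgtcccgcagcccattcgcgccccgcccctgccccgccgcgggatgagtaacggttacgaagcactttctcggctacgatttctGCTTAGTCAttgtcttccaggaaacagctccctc
GINS2: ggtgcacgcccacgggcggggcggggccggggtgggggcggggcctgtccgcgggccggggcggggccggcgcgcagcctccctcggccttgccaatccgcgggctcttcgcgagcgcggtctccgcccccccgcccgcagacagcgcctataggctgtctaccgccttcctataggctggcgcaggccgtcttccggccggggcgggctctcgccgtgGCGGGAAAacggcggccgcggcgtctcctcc
RFC3: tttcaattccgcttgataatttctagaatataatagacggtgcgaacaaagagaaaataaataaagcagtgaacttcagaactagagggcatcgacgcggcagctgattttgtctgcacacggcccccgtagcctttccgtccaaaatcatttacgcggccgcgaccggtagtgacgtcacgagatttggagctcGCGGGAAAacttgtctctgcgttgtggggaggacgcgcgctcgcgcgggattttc
KIF11: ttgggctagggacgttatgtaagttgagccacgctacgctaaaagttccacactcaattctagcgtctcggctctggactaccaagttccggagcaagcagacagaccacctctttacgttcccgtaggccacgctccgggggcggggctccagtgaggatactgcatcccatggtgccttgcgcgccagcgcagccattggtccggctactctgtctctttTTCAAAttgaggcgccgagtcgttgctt

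Genes of DNA replication lay lower at 250 than at 100 µg/ml. All 33 measured members had a mean difference below 0, from -0.13 to -0.80, with a median of -0.46. Lower in 3 of 3 pairs were 25 of 33 (background 13.7%), higher in 3 of 3 were 0 (17.6%), and 21 were lower at an unadjusted p under 0.05 (5.41%), none after adjustment. Pair 3 contributed least, since the median was -0.55 in pair 1, -0.72 in pair 2 and -0.12 in pair 3. The list mean stood at 7.41, 7.64 and 6.73 on the arrays at 100 µg/ml, at 6.86, 6.93 and 6.62 at 250 µg/ml, and at 6.49, 5.75 and 6.75 with vehicle. On the arrays numbered 3 the list was thus near the vehicle level at both doses, and on those numbered 1 and 2 the higher dose lay between vehicle and the lower dose.

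GINS2, a subunit of the replicative helicase, stood at 6.83, 7.58 and 6.59 at 100 µg/ml and at 6.24, 6.63 and 6.03 at 250 µg/ml (-0.70 ± 0.11, limma adjusted p = 0.161). RFC3, of the clamp loader, stood at 8.90, 8.81 and 7.90 and at 8.13, 7.97 and 7.63 (-0.63 ± 0.13, limma adjusted p = 0.24). MCM5, of the same helicase as GINS2, stood at 8.92, 9.48 and 8.23 and at 8.26, 8.40 and 7.99 (-0.66 ± 0.16, limma adjusted p = 0.253). In all 3 genes the step was smallest in pair 3. Enzymes of nucleotide supply were lower in each pair as well, with RRM1 of ribonucleotide reductase at 9.49, 10.06 and 9.09 and at 8.93, 9.04 and 8.80 (-0.62 ± 0.15) and thymidylate synthase, TYMS, at 9.15, 9.07 and 8.98 and at 8.09, 8.09 and 8.77 (-0.75 ± 0.18), both named after their values were seen.

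Genes of mitosis and the cell cycle lay lower too, with a median of -0.30 over 27 members. Lower in 3 of 3 pairs were 14 of 27 (51.9%, background 13.7%) and higher 0 (background 17.6%). At an unadjusted limma p under 0.05, 14 were lower (background 5.41%). Here pair 3 did not trail, with medians of -0.15, -0.39 and -0.43 in pairs 1, 2 and 3. KIF11, the spindle motor Eg5, stood at 7.19, 7.70 and 6.54 at 100 µg/ml and at 6.21, 6.70 and 5.95 at 250 µg/ml (-0.86 ± 0.11, limma adjusted p = 0.157). CDK1, the kinase that drives entry into mitosis, stood at 7.41, 7.55 and 7.11 and at 6.04, 6.35 and 6.66 (-1.01 ± 0.18, limma adjusted p = 0.211). MKI67, which encodes the proliferation marker Ki-67, stood at 7.46, 7.65 and 6.92 and at 6.28, 6.34 and 6.74 (-0.89 ± 0.22, limma adjusted p = 0.256). The doses did not overlap in CDK1 and MKI67. TOP2A, TPX2, CCNA2 and BIRC5, named after their values were seen, differed by -0.71, -0.49, -0.47 and -0.42 with no overlap. The largest difference of the list was that of cyclin E2, CCNE2, with -1.05, -1.99 and -0.44 in the 3 pairs. In KIF11, CDK1, MKI67 and CCNE2 the step was smallest in pair 3, unlike the list median, so these members do not stand for the list by pair. The list mean stood at 7.01, 7.26 and 6.97 at 100 µg/ml, at 6.81, 6.85 and 6.58 at 250 µg/ml and at 6.24, 5.73 and 6.50 with vehicle, so every array at 250 µg/ml stood between the vehicle arrays and its partner at the lower dose. Fewer cycling cells and less of these transcripts per cell cannot be told apart in bulk RNA.

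Replication-dependent histone genes, a list drawn up after values were seen, differed strongly between pairs. Over 50 genes, 45 of them on chromosome 6, the median difference was -0.38, with -0.68, -0.34 and -0.11 in pairs 1, 2 and 3. Lower in 3 of 3 pairs were 24 of 50 (48.0%, background 13.7%) and higher 1 (2.0%, background 17.6%). The list mean stood at 5.61, 5.74 and 5.66 at 100 µg/ml and at 4.69, 5.26 and 5.57 at 250 µg/ml. H2AC4 stood at 5.59, 6.15 and 6.00 and at 3.82, 4.43 and 5.23 (-1.42 ± 0.20, limma adjusted p = 0.157). H4C1 stood at 6.45, 6.33 and 6.25 and at 3.35, 5.15 and 5.27 (-1.75 ± 0.39, limma adjusted p = 0.249), and its difference was -3.10, -1.17 and -0.98 in the 3 pairs. Array 1 at 250 µg/ml was the lowest in both genes. Members of a histone family are near-identical in sequence, so their probe sets may share signal and are uncertain as single genes.

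**Figure D4:**
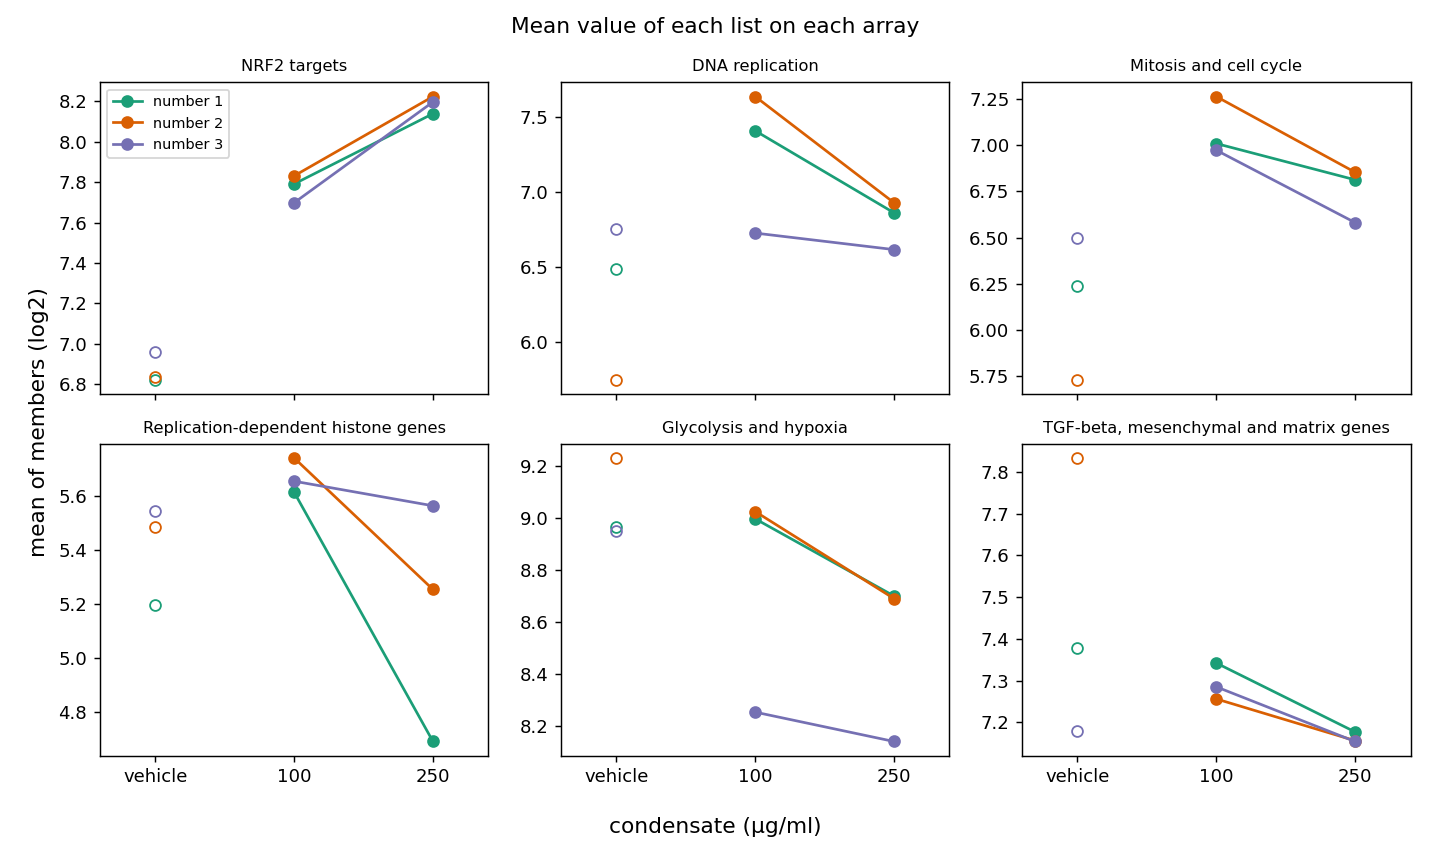
Mean log2 value of the members of 6 gene lists on each array; lines join same-numbered arrays of both doses, and open circles are the vehicle arrays. NRF2 targets lie in ordered bands (6.82 to 6.96, 7.70 to 7.83, 8.14 to 8.22), while replication genes on the arrays numbered 3 stay near the vehicle level (6.73 and 6.62).

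Genes of glycolysis and the hypoxia response were also lower at 250 µg/ml, with a median of -0.23 over 25 members. Lower in 3 of 3 pairs were 14 of 25 (56.0%, background 13.7%) and higher 0 (background 17.6%). At an unadjusted limma p under 0.05, 12 were lower (background 5.41%). ALDOC, an aldolase isoform, stood at 7.42, 7.74 and 6.53 at 100 µg/ml and at 6.93, 7.20 and 6.07 at 250 µg/ml (-0.50 ± 0.09, limma adjusted p = 0.192). PDK1, which restrains pyruvate dehydrogenase, stood at 9.76, 9.55 and 8.50 and at 9.22, 9.11 and 7.54 (-0.65 ± 0.12, limma adjusted p = 0.213). Steps were alike in size across pairs for ALDOC, and in both genes the arrays numbered 3 lay lowest at either dose. BNIP3, a mitophagy receptor gene induced by hypoxia, stood at 12.56, 12.30 and 10.12 and at 11.91, 10.68 and 9.60 (-0.93 ± 0.21, named after its values were seen). VEGFA, the vascular growth factor gene, stood at 7.16, 7.07 and 6.54 and at 6.94, 6.75 and 6.40 (-0.23 ± 0.09, limma adjusted p = 0.424), below the vehicle arrays (7.56, 8.47 and 8.07) at both doses. The list mean on the array numbered 3 was 8.25 at 100 µg/ml and 8.14 at 250 µg/ml, against 8.69 to 9.03 on the other 4, so the arrays numbered 3 stood apart by more than the step between doses.

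Among genes of TGF-beta signalling, mesenchyme and matrix, 12 of 29 lay lower and 1 higher in 3 of 3 pairs, with a median of -0.11. These were 41.4% and 3.45%, against 13.7% and 17.6% of all probe sets. The list mean stood at 7.34, 7.26 and 7.29 on the arrays at 100 µg/ml and at 7.18, 7.16 and 7.15 at 250 µg/ml, with no overlap, while the vehicle arrays ran from 7.18 to 7.83. CCN2, connective tissue growth factor, stood at 8.17, 8.15 and 8.09 at 100 µg/ml and at 7.50, 7.55 and 7.61 at 250 µg/ml (-0.58 ± 0.09, limma adjusted p = 0.161). The one member higher in every pair was TGFB1 itself, at 5.69, 5.69 and 5.84 and at 6.11, 6.02 and 6.38 (0.43 ± 0.09, limma adjusted p = 0.24), whereas TGFB2 lay lower (-0.40 ± 0.10). The basement membrane collagen genes COL4A1 and COL4A2 differed by -0.34 and -0.31, and doses did not overlap in either. Of 16 metalloproteinase genes and inhibitors 7 lay lower (43.8%) and 2 higher (12.5%) in 3 of 3 pairs. The aggrecanase gene ADAMTS5 stood at 5.99, 6.21 and 7.68 and at 5.23, 5.66 and 6.68 (-0.77 ± 0.11, limma adjusted p = 0.157), and ADAMTS1 differed by -0.74 ± 0.14. The vehicle arrays of CCN2 spread from 7.00 to 10.33, wider than the step between doses.

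Genes of the AHR pathway had no common direction between doses. The mean difference was above 0 in 2 of the 6 measured and below 0 in 4. CYP1A1 stood at 5.21, 5.24 and 5.74 at 100 µg/ml and at 4.71, 4.98 and 5.37 at 250 µg/ml, lower in each pair (-0.38 ± 0.09, limma adjusted p = 0.257), and both doses were far above vehicle (2.68, 2.66 and 2.65). CYP1B1 stood at 10.53, 10.48 and 11.31 and at 10.27, 10.49 and 11.00 (-0.19 ± 0.10, limma adjusted p = 0.571), with vehicle at 8.64, 8.37 and 9.09. Of 6 measured genes of this pathway 1 lay higher and 1 lower in 3 of 3 pairs, the higher being ARNT, which encodes the partner of AHR on DNA (0.25 ± 0.10, limma adjusted p = 0.424).

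Genes of the unfolded protein response had small list medians, with members in both directions. ER chaperones and folding enzymes had a median of 0.06 over 19 members, with 6 higher and 2 lower in 3 of 3 pairs. These were 31.6% and 10.5%, against 17.6% and 13.7% of all probe sets. At an unadjusted limma p under 0.05 there were 5 higher and 2 lower (background 5.74% and 5.41%). HSPA5, the chaperone BiP, stood at 9.29, 9.22 and 8.32 at 100 µg/ml and at 9.16, 9.22 and 8.76 at 250 µg/ml (0.10 ± 0.13, limma adjusted p = 0.847), and its sign differed between pairs. HYOU1, an ER chaperone of the same family, stood at 9.43, 9.41 and 9.45 and at 9.66, 9.72 and 9.56 (0.22 ± 0.09, limma adjusted p = 0.447), higher in each pair and without overlap. The co-chaperone gene DNAJB11 differed by 0.38 ± 0.10. The oxidase gene ERO1B differed by 0.49 ± 0.12 and its paralog ERO1A by -0.33 ± 0.09, so 2 enzymes of disulfide formation lay in opposite directions. The ERAD and XBP1 list had a median of 0.06, with 5 of 25 members higher and 5 lower in 3 of 3 pairs, and SEL1L3 had its smallest p, before the translocon gene SSR1 (0.36 ± 0.12).

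The branch of ATF4 and CHOP, which serves amino acid supply and, under lasting stress, cell death, had a median of -0.04 over 33 members, with 4 higher and 7 lower in 3 of 3 pairs. These were 12.1% and 21.2%, against 17.6% and 13.7% of all probe sets. At an unadjusted limma p under 0.05 there were 3 higher and 7 lower (background 5.74% and 5.41%). DDIT3, which encodes CHOP, differed by -0.09 ± 0.09, ATF4 by 0.15 ± 0.10, ATF3 by -0.27 ± 0.11 and TRIB3 by 0.01 ± 0.10, with limma adjusted p of 0.806, 0.679, 0.429 and 0.993. Its member of smallest p was TXNIP, an inhibitor of thioredoxin that is turned on by glucose, at 9.76, 9.90 and 9.37 at 100 µg/ml and 9.08, 8.82 and 8.61 at 250 µg/ml (-0.84 ± 0.11, limma adjusted p = 0.157). The doses did not overlap for TXNIP, and vehicle stood above both (10.42, 10.26 and 10.55). STC2, a secreted glycoprotein gene, followed with -0.30 ± 0.09.

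Respiratory chain genes lay close to the background. Complex I subunits had a median of 0.04 over 27 members, with 5 higher and 4 lower in 3 of 3 pairs, and complexes II to V one of -0.00 over 27, with 4 and 2. Their members of smallest p were NDUFA5 (-0.43 ± 0.14), NDUFV1 (-0.27 ± 0.10), the succinate dehydrogenase subunit SDHC (0.67 ± 0.12) and COX5A (0.30 ± 0.09), with limma adjusted p of 0.353, 0.406, 0.211 and 0.336. The citrate cycle list had a median of -0.03 over 14, in which IDH1, the cytosolic NADPH-making isocitrate dehydrogenase, differed by 0.41 ± 0.14 and its mitochondrial paralog IDH2 by -0.27 ± 0.09.

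Among the lists of protein quality control, the proteasome had 8 of 26 members higher and 2 lower in 3 of 3 pairs (median 0.10). These were 30.8% and 7.69%, against 17.6% and 13.7% of all probe sets. The list was led by PSMB6 (0.78 ± 0.23) and PSMB1 (0.27 ± 0.10). Cytosolic heat shock genes had 5 of 17 higher and 1 lower (29.4% and 5.88%, median 0.14), with 0 at an unadjusted limma p under 0.05. The lowest p were those of FKBP4 (0.20 ± 0.09), an HSP90 co-chaperone, and the small heat shock protein gene HSPB1 (0.26 ± 0.12). DNAJB1, a co-chaperone induced by heat shock, differed by -0.00 ± 0.10. Metallothionein and zinc export genes had a median of 0.112 over 7 members, with 0.082, 0.085 and 0.168 in pairs 1, 2 and 3. All 7 had a mean difference above 0, as did 7808 of all 14378 probe sets. In 3 of 3 pairs 3 lay higher and 0 lower (background 17.6% and 13.7%). At an unadjusted limma p under 0.05, 1 was higher (background 5.74%). MT1X, a metal-binding metallothionein gene, stood at 2.28, 2.76 and 2.36 at 100 µg/ml and at 2.51, 2.52 and 4.40 at 250 µg/ml, where array 3 alone stood apart. Without the arrays numbered 3 the difference of MT1X was -0.007 in place of 0.68. The zinc exporter gene SLC30A1 lay higher in 3 of 3 pairs (0.39 ± 0.14), and MT1G in 2 of 3 (-0.16, 1.05 and 0.61).

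For p53 targets, 6 of 17 lay lower (35.3%) and 0 higher in 3 of 3 pairs (median -0.12), against 13.7% and 17.6% of all probe sets. The list was led by the death receptor gene FAS (-0.51 ± 0.11) and the repair gene DDB2 (-0.62 ± 0.14). The cell cycle inhibitor CDKN1A differed by -0.69, 0.02 and 0.17 in the 3 pairs. Inflammatory genes of NF-kB had a median of -0.02, with 1 of 21 higher and 2 lower (4.76% and 9.52%, both under the background). CXCL8 and IL6 differed by -0.10 ± 0.14 and -0.15 ± 0.09, on levels of 2.63 to 3.22 for CXCL8 and 2.54 to 2.89 for IL6. Complement genes had 4 of 11 lower and 1 higher (36.4% and 9.09%), led by C3 (-0.35 ± 0.10), the central component of the cascade. In the pigment epithelium identity list 6 of 19 lay lower and 3 higher (31.6% and 15.8%). It was led by the melanin enzyme gene TYRP1 (-0.39 ± 0.11) and the membrane linker gene EZR (-0.30 ± 0.09). The BCL2 family had 0 of 13 members at an unadjusted limma p under 0.05 (11.2% of all probe sets in either direction), and BCL2 differed by 0.04 ± 0.09. The median of the family was 0.068, with 0.1, 0.057 and 0.135 in pairs 1, 2 and 3. In 3 of 3 pairs 2 members lay higher (15.4%) and 0 lower.

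**Figure D5:**
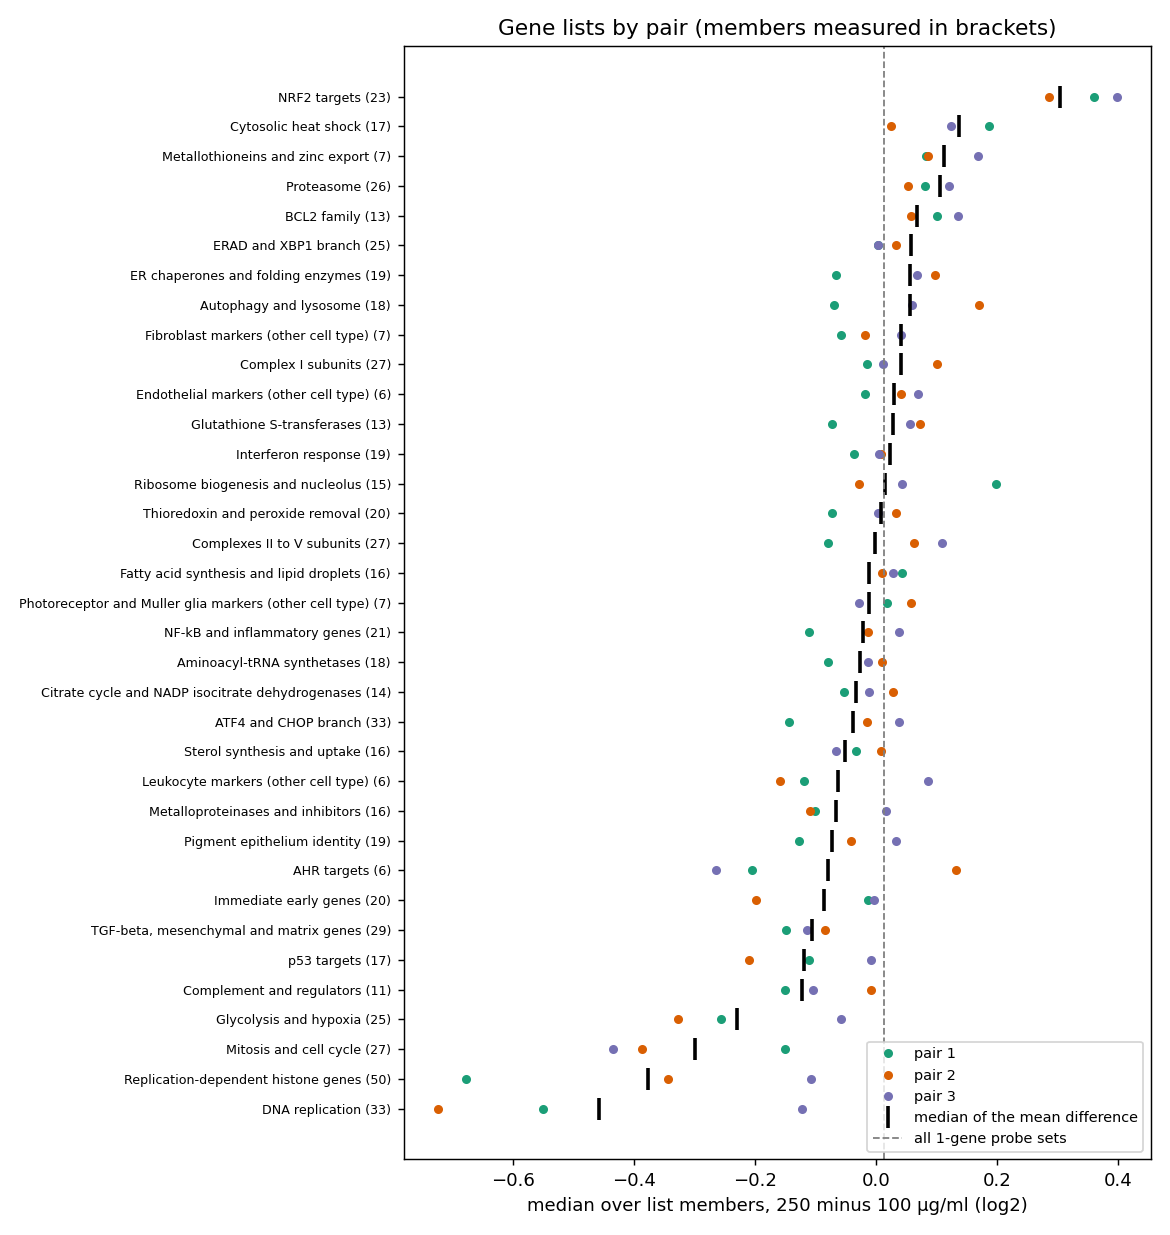
Median difference (250 minus 100 µg/ml, log2) over the measured members of 34 gene lists and the histone genes, in each pair (coloured points) and for the mean of the pairs (black bars); the dashed line is the median of all 14378 probe sets, 0.01. NRF2 targets lie at the upper end (0.30) and DNA replication genes at the lower end (-0.46), and the pairs of most other lists lie on both sides of the dashed line.

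Further lists lay close to the background of 17.6% higher and 13.7% lower in 3 of 3 pairs. Glutathione S-transferases had 2 of 13 higher and 2 lower, with GSTA4 differing by 0.58 ± 0.13 and GSTM3 by 0.30 ± 0.10. Sterol synthesis had 4 of 16 higher and 3 lower, with the isomerase gene EBP lowest (-0.45 ± 0.11). Fatty acid synthesis and lipid droplets had 3 of 16 higher and 1 lower, with the hypoxia-induced droplet gene HILPDA at -0.62 ± 0.18 and the acyl-CoA synthetase gene ACSL1 at 0.45 ± 0.14. Aminoacyl-tRNA synthetases had 2 of 18 in each direction, and interferon genes 2 of 19 higher and 1 lower, with the antiviral synthetase gene OAS3 at -0.44 ± 0.11. The thioredoxin and peroxide list had 3 of 20 in each direction, among them SRXN1 (higher) and TXNIP (lower). Autophagy and lysosome genes had 4 of 18 higher and 3 lower, and immediate early genes 3 of 20 higher and 4 lower.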

How the data were processed

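Values were taken from the deposited series table, in which the authors give 1 log2 expression value per probe set and array. RMA, Partek and hg18 stand in the submitters' processing notes, with neither version nor role. RMA makes the value distributions of arrays alike, so a change in total RNA cannot be seen, and the table holds no detection calls or batch labels.

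Of 17629 probe sets, 14378 carry 1 gene symbol, 2405 several and 846 none. Symbols were updated through RefSeq GRCh38.p14, and 28 of the probe sets with 1 symbol had no match there. For the 169 genes with several probe sets, the lists use the brightest.

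The 6 arrays were fitted with limma 3.58.1 (R 4.3.3; array number as a fixed block, 2 residual degrees of freedom, prior 4.26, two-sided) with Benjamini-Hochberg adjustment over 14378 probe sets. The titles give shared numbers without saying what they mark, and the pairing rests on correlations of 0.601, 0.441 and 0.681 between same-numbered arrays. Standard errors are limma's moderated ones. The number of arrays limits the precision.

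Since no probe set passed, genes named are the 10 of smallest p in each direction with 3 of 3 pairs alike, the 2 of smallest p in each list described, and 27 chosen by name, of which 24 are measured alone (not HSPA1B, MT2A, NDUFS1). Genes outside this rule, such as PSME2, PGD, AKR1C3, CCNE2, H4C1, ERO1A, TGFB2, COL4A1, COL4A2 and OAS3, were chosen after their values were seen. One of the 10 lower genes is not reported here. The members and lists were chosen with earlier results of these data known. Promoter windows, the 250 bases before a gene's start, came from RefSeq (GRCh38.p14). Alternatives covered the block, the scaling, the probe sets used, the variance model and leaving out each array number.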

Additional observations from a re-analysis of the deposited data

How the results depend on the processing

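Of 15 alternatives, 12 also gave 0 calls. Leaving out the dimmest probe sets gave 1 higher and 8 lower, all 9 among the 20 genes of lowest p, an intensity trend gave 1 and 7, and leaving out 1 array number gave 0 to 5 in each direction. The 5 and 5 came without number 2: among the lower NPPB, IL7R, IGFBP3 and PDCD1LG2, and as the higher HMOX1, PSME2, PIR, LMBR1 and PNN, of which PNN stood at -1.28 in the pair left out. The lowest limma adjusted p ran from 0.0191 to 1 over these settings.

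Without the replicate block, counts at an unadjusted p under 0.05 went from 826 higher and 778 lower to 220 and 231 (6 arrays) or 140 and 121 (9 arrays). With the block and 9 arrays they were 264 and 205. Without moderation 413 were lower, and without 1 array number 424 to 1360 were higher and 501 to 1075 lower.

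The 20 genes of lowest p kept their direction in all 15 settings, but most of these settings could not have reversed it. The genes were chosen with all pairs alike in direction, so leaving out an array number cannot turn the sign of the mean. Changing the block, the variance model or the probe sets used left their differences the same. Only centring and quantile normalization could have changed a sign, and neither did. Of 612 comparisons of single genes, 10 had the opposite sign. Over the array numbers left out, the difference ran from -0.063 to 0.221 for HSPA5, from -0.074 to 0.103 for TRIB3 (-0.009 without number 2), from -0.084 to 0.091 for DNAJB1, from -0.007 to 1.131 for MT1X, from -0.335 to 0.094 for CDKN1A and from -0.261 to 0.081 for CXCL8. TRIB3 was also below 0 after centring (-0.016) and quantile normalization (-0.017), and DNAJB1 above 0 after the latter (0.02). The cause was not tested. List medians over the array numbers left out ran from 0.294 to 0.327 for NRF2 targets, -0.643 to -0.381 for DNA replication, -0.402 to -0.239 for mitosis, -0.273 to -0.187 for glycolysis and hypoxia and -0.127 to -0.066 for the matrix list.

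The table holds no detection calls, so signal over background is unknown. The lower quartile of the 6 arrays lay between 2.92 and 3.13. IL6 lay below it on all 6 arrays, and so did MT1X except on array 3 at 250 µg/ml (4.40). CXCL8, from 2.63 to 3.22, lay around it.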

Other observations

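Among the 17 higher and 41 lower probe sets that differed by at least 0.5 log2 units in every pair were genes of groups not covered by the lists, which are named here after their values were seen and without a test of the group. At the cell surface and in the secreted space, CSF1, the macrophage growth factor gene, stood at 4.86, 4.78 and 5.82 at 100 µg/ml and at 5.80, 5.51 and 6.33 at 250 µg/ml (0.73 ± 0.11), and TSKU, a secreted proteoglycan gene, at 7.63, 7.56 and 8.92 and at 8.33, 8.45 and 9.42 (0.70 ± 0.11). Both were higher in each pair, and in both the arrays numbered 3 lay highest at either dose. In the other direction, the keratin gene KRT13 stood at 6.75, 6.90 and 5.69 and at 5.30, 5.66 and 5.05 (-1.11 ± 0.16) with no overlap, and the organic anion carrier gene SLCO1A2 at 7.03, 7.32 and 6.96 and at 6.33, 6.35 and 6.24 (-0.79 ± 0.10), also with no overlap. CP, which encodes the copper ferroxidase ceruloplasmin, stood at 4.18, 5.32 and 4.77 and at 3.46, 4.67 and 4.21 (-0.64 ± 0.09), and its vehicle arrays, at 7.18, 2.83 and 8.28, spread more widely than the treated ones. TGM2, a transglutaminase that cross-links matrix proteins, stood at 5.14, 5.22 and 4.46 and at 4.49, 4.24 and 3.85 (-0.75 ± 0.11). IGFBP5, a relative of IGFBP3, stood at 5.90, 5.83 and 9.13 and at 4.97, 5.12 and 8.61 (-0.72 ± 0.11), with the arrays numbered 3 apart from the others by more than the step between doses. SMC2, a core subunit of condensin, stood at 7.55, 8.12 and 7.21 and at 6.86, 6.73 and 6.36 (-0.98 ± 0.15) with no overlap, and DIAPH3, an actin-nucleating formin gene, at 7.69, 7.68 and 6.72 and at 7.02, 6.12 and 5.94 (-1.01 ± 0.18). Limma adjusted p-values of these 9 genes lay between 0.157 and 0.211.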
